A study of Mus musculus with 48 samples.

Results

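Wnt3, Wnt3a, Wnt4, Wnt6, Wnt7b, Wnt10a and Wnt10b are WNT ligands known to be made in the skin epithelium and to act through beta-catenin. These 7 genes were chosen by their symbols, of the 46983 genes in each deposited table, and all 7 were found and passed the filter on low values in both tables. The study profiled whole skin of C57BL/6 mice from 3 domains (chin, ventral and dorsal) at 6 labelled hair cycle stages (rest as competent or refractory telogen, growth as early, mid or late anagen, and regression as catagen), to ask how signaling differs between domains whose hair follicles (HFs) cycle at different speeds. The 18 groups held 2 or 3 RNA-seq libraries each, 43 in all. A second table compared 2 libraries of telogen ear skin and 3 of the ear cartilage/muscle complex with 2 libraries of dorsal competent telogen skin, whose values are the same as in the first table, so that 48 libraries are distinct. No group carried a named transgene, deletion or treatment, and the labels give no age and do not say whether a library came from a single mouse. The p-values therefore measure the spread between libraries, which may be technical. Because RNA came from whole skin, a lower level can mean fewer cells of a type or less RNA per cell, and the data cannot tell these apart.

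WNT ligands are lipid-modified secreted proteins that bind frizzled receptors with LRP co-receptors on nearby cells. In canonical signaling this binding stabilizes beta-catenin, which enters the nucleus and activates targets together with LEF and TCF factors. In skin, epithelial WNT ligands are needed for HF induction, and renewed WNT signaling in the hair germ accompanies the return from telogen to anagen. Wnt10a and Wnt10b are known from HF placodes and matrix, Wnt3 and Wnt3a are classic inducers of the pathway, Wnt4 and Wnt6 are ligands of many epithelia, and Wnt7b is made in the epidermis and HF.

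In the mouse genome (GRCm38, GENCODE vM21), Wnt6 (chr1:74771892-74785322) and Wnt10a (chr1:74791516-74804179) are neighbours on the same strand, 6193 bases apart. Wnt3 lies at chr11:103774150-103817957 and Wnt3a at chr11:59248033-59290752. Wnt4 lies at chr4:137277489-137299726. Wnt7b lies at chr15:85535437-85582473 and Wnt10b at chr15:98770712-98778150. Wnt6 and Wnt7b each overlap a gene on the opposite strand, Gm29539 and AU022754, and strand was not stated to be used in counting, so reads of these pairs cannot be told apart. Both partners were low, at 0 to 0.32 FPKM for Gm29539 and 0 to 0.14 FPKM for AU022754 over the 43 libraries.

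The 250 bases before the RefSeq start of 3 members, which can differ from the GENCODE start, are shown as examples. Over the group means, Pearson's r was 0.72 for Wnt6 and Wnt10b, and 0.739 for Wnt10b and Wnt3a, whose window is not printed. Wnt3 had r of -0.12 with Wnt6 and 0.0702 with Wnt10b. No link between the windows and these r was tested. Capitals mark GC boxes, searched as GGGCGG on both strands, which were found in 32.7% of 32851 RefSeq promoters of the same length (GRCm38.p6). The windows are chr1:74771642-74771891 on the plus strand for Wnt6, chr15:98778151-98778400 on the minus strand for Wnt10b and chr11:103773925-103774174 on the plus strand for Wnt3. They read, 5′ to 3′:
Wnt6: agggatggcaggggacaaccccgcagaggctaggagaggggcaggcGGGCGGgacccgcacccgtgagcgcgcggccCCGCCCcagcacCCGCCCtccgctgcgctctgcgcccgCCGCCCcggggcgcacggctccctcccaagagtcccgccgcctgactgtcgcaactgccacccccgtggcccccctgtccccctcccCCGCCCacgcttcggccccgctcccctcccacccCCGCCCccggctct
Wnt10b: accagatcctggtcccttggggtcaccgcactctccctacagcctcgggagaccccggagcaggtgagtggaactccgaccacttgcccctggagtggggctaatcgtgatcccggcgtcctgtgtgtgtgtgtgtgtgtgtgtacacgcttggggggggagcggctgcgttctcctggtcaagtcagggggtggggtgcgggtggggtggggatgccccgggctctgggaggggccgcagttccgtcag
Wnt3: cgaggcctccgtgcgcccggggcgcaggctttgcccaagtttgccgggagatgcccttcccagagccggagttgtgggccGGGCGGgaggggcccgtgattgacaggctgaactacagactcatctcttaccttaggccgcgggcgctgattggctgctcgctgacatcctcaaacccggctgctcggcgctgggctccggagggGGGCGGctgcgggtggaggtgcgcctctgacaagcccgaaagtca
The Wnt6 window held 6 GC boxes, the Wnt3 window 2 and the Wnt10b window 0. The windows of Wnt4 and Wnt3a, not printed, held 8 and 9. All 5 windows found in the RefSeq table were richer in G and C than the median promoter (52.4%), at 66.8% for Wnt10b, 68% for Wnt3, 79.6% for Wnt6, 85.2% for Wnt4 and 87.6% for Wnt3a. The LEF and TCF core CTTTGNT, present in 16% of all promoters on either strand, was in none of the 5 windows, which says only that these letters are not there. Wnt7b and Wnt10a had no entry in the table.

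The labelled stages were checked against marker genes, and several groups went against their labels. The 12 cell cycle markers summed to 57.5 to 78.6 FPKM in the libraries labelled refractory telogen, to 207 to 520 FPKM in those labelled competent telogen and to 41.0 to 51.0 FPKM in ventral early anagen, the lowest of all. The 14 hair shaft and matrix markers found, of 15, summed to 10098 and 10209 FPKM in dorsal competent telogen, close to chin late anagen (10009 and 10692 FPKM), and to 1302 and 1451 FPKM in dorsal early anagen. By Pearson's r over all genes, both dorsal competent telogen libraries were closest to a chin late anagen library (r = 0.983), both chin late anagen libraries were closest to a dorsal competent telogen library, and 11 of the 43 libraries were closest to a library of another group. Stage names below are therefore the labels' names. The libraries labelled competent telogen, ventral early anagen and chin late anagen are called the doubted ones. For the 7 ligands, the interaction, the stage tests and mid anagen against telogen are also given without them. Catagen was not counted among the doubted groups. Its cell cycle markers summed to 469 to 481 FPKM in dorsal, 305 in chin and 318 to 329 in ventral skin. In mid anagen they summed to 318 to 345, 198 to 290 and 291 to 326 FPKM. The ventral catagen libraries were closest to late anagen libraries, of ventral or dorsal skin. In addition, 1 of the 2 ventral catagen libraries carries a tissue tag of the ear beside a title and source name of ventral catagen, which were followed; without it all 7 ligands still changed over the ventral stages. The estimated depth was 6839116 to 25118864 fragments per skin library, at which 1 fragment on a 2000-base transcript is worth 0.0731 to 0.0199 FPKM.

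Wnt3 and Wnt10a together made up most of the summed level of the 7 ligands. FPKM are scaled to transcript length, so levels can be set side by side between genes. The median share of the sum over the 43 libraries was 33.9% for Wnt3, 26.6% for Wnt10a, 15.9% for Wnt4, 9.65% for Wnt7b, 4.68% for Wnt6, 3.93% for Wnt3a and 1.38% for Wnt10b. No ligand was at 0 in any skin library. The sum of the 7 levels averaged 58.9 ± 0.98 FPKM (SD, n = 2) in chin late anagen and 59.8 ± 0.49 FPKM (n = 2) in dorsal competent telogen, the lowest groups, and 102.8 ± 12.3 FPKM (n = 3) in ventral competent telogen, the highest.

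**Figure D1:**
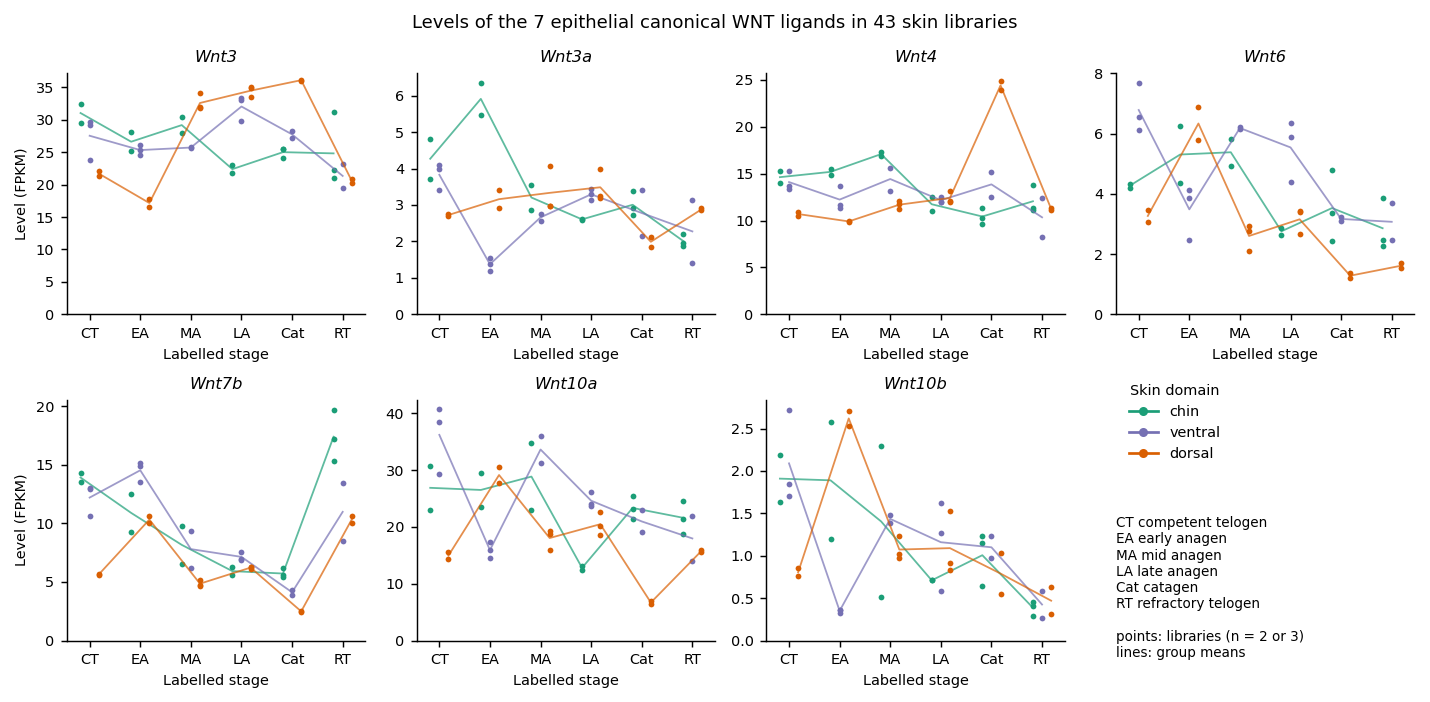
Level of each ligand in FPKM (vertical axis, from 0) by labelled stage (horizontal axis), with points for the 43 libraries, lines through group means and colors for the 3 domains. Dorsal catagen stands apart for Wnt4 (23.96 and 24.89 FPKM) and Wnt10a (6.5 and 6.88 FPKM), and ventral early anagen lies low for Wnt3a and Wnt10b.

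All 7 ligands changed over the 6 stages in each domain. The F-test of the stage differences passed for 7 of 7 in chin, in ventral and in dorsal skin, where 66.2%, 70.2% and 68.5% of all 21257 genes tested passed. The profile over the stages also differed between the domains for 7 of 7, where 73.3% of all genes passed, with adjusted p-values from 5.47e-09 for Wnt10a to 0.000393 for Wnt10b. These and all other p-values are from limma fits with Benjamini-Hochberg adjustment over all genes tested. Without the libraries whose markers went against their labels, the interaction was tested over mid anagen, catagen and refractory telogen and passed for 3 of 7, where 56.8% of all genes passed, namely Wnt4 (adjusted p = 1.04e-06), Wnt10a (0.000428) and Wnt3 (0.00532). The adjusted p-values of the other members were then 0.0696 for Wnt3a, 0.182 for Wnt7b, 0.619 for Wnt6 and 0.951 for Wnt10b. In these fits the stage test was lost for Wnt3 (0.218) and Wnt10a (0.182) in chin and for Wnt3a (0.189) and Wnt10b (0.125) in ventral skin.

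**Figure D2:**
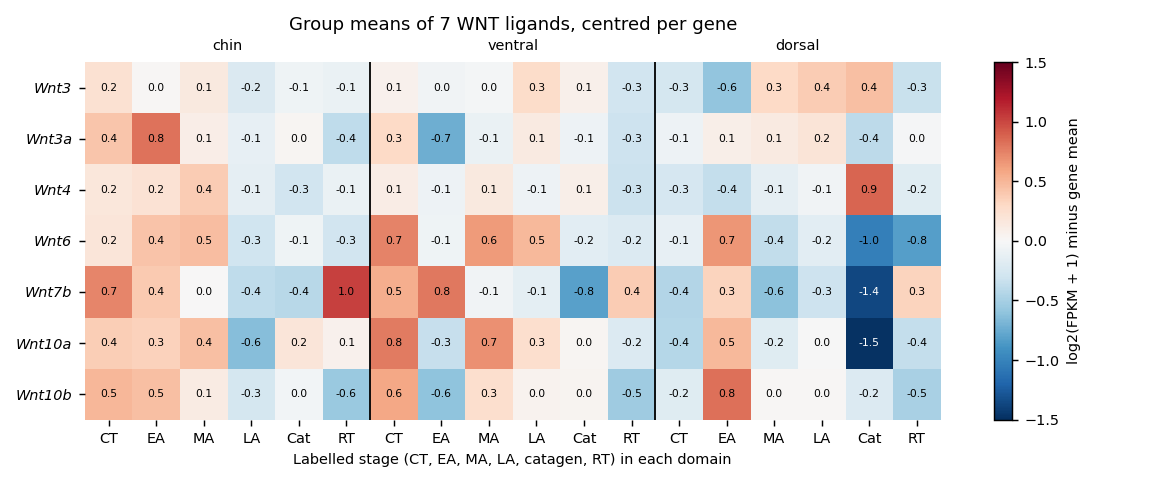
Group mean of each ligand (rows) in the 18 domain-stage groups (columns) as log2(FPKM + 1) minus the mean of that gene over the groups, red above and blue below. The dorsal catagen column holds the lowest values of Wnt10a (-1.48) and Wnt7b (-1.36) beside the highest of Wnt4 (0.87).

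Wnt3 was the steadiest of the 7 ligands, with group means that spanned 2.10-fold. Its libraries ranged from 16.47 to 36.2 FPKM. In dorsal skin Wnt3 was 21.37 and 22.04 FPKM in competent telogen, 17.85 and 16.47 in early anagen, 31.82, 34.07 and 31.9 in mid anagen, 35.07, 33.56 and 34.85 in late anagen, 36.03 and 36.2 in catagen, and 20.86 and 20.31 in refractory telogen. The dorsal libraries of mid anagen to catagen thus all lay above those of the other dorsal stages. The rise from early to mid anagen was 0.89 ± 0.11 (log2 difference of log2(FPKM + 1) ± SE, adjusted p = 1.15e-07) and the fall from catagen to refractory telogen was -0.78 ± 0.12 (2.46e-06). Chin libraries overlapped far more, at 28.0 and 30.37 FPKM in mid anagen against 29.58 and 32.51 in competent telogen and 21.0, 22.31 and 31.15 in refractory telogen. The chin stage test was lost without competent telogen replicate 1 (adjusted p = 0.0533). Of the 17 neighbouring pairs in the order of the group means, 15 overlapped in their library values.

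Wnt10a, known from HF placodes and tooth and hair disorders, varied more, over 5.41-fold between group means. It was lowest in dorsal catagen (6.5 and 6.88 FPKM) and highest in ventral competent telogen (29.35, 38.55 and 40.71 FPKM). Between these, chin late anagen (12.39 and 13.2 FPKM) and ventral early anagen (14.48, 15.93 and 17.36 FPKM) were also low. In dorsal skin Wnt10a fell by 1.48 from late anagen to catagen (± 0.17 SE on the log2 scale, adjusted p = 3.55e-08) and rose by 1.13 ± 0.18 from catagen to refractory telogen (9.89e-06). In chin skin it fell by 1.09 from mid to late anagen (± 0.18, 8.18e-05), a step into the libraries that resembled dorsal competent telogen, and the stage test in chin was lost without these 2 libraries (adjusted p = 0.228). Of the 17 neighbouring pairs, 13 overlapped.

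Wnt4 was highest in dorsal catagen, a group apart from the rest. It lay between 8.26 and 17.31 FPKM in 41 libraries, and at 23.96 and 24.89 FPKM in dorsal catagen. The step into dorsal catagen was 0.92 ± 0.11 (adjusted p = 1.49e-07) and the step out of it -1.05 ± 0.12 (5.67e-08). Chin mid anagen, the next group in order, held 16.87 and 17.31 FPKM and did not overlap its neighbours. In ventral skin the stage test of Wnt4 passed (0.00865) but was lost without refractory telogen replicate 1 (0.0695), the library with the lowest value, 8.26 FPKM.

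Wnt7b was higher in refractory telogen than in catagen in each domain. In refractory telogen it was 15.29, 17.19 and 19.71 FPKM in chin, 8.48 and 13.49 in ventral and 10.06 and 10.62 in dorsal skin. In catagen it was 5.43, 5.58 and 6.15 FPKM in chin, 3.89 and 4.35 in ventral and 2.46 and 2.52 in dorsal skin. Every refractory telogen library thus lay above every catagen library, and Wnt7b rose from catagen to refractory telogen by 1.45 ± 0.14 in chin (adjusted p = 6.85e-10), 1.2 ± 0.17 in ventral skin (2.2e-06) and 1.70 ± 0.17 in dorsal skin (1.96e-09). It was the only member that passed this step in the same direction in all 3 domains, where 30.5%, 14.9% and 19.1% of all genes rose. The libraries labelled competent telogen were split, at 10.65 to 14.33 FPKM in chin and ventral skin and 5.58 and 5.7 in dorsal skin, the latter below dorsal late anagen (6.08 to 6.3 FPKM). High levels were not limited to libraries labelled telogen. Dorsal early anagen (10.02 and 10.63 FPKM) overlapped dorsal refractory telogen. Ventral early anagen held 13.57 to 15.15 FPKM, above every ventral telogen library, but is among the doubted groups. Its cell cycle markers were the lowest of all, at 41.0 to 51.0 FPKM, and its basal keratinocyte markers summed to 13440 to 14248 FPKM. Basal keratinocyte markers moved with Wnt7b: their sum was 6822 to 9496 FPKM in refractory telogen and 2268 to 4309 FPKM in catagen, and their part in the result was not tested.

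Wnt6, the neighbour of Wnt10a, followed a similar course at a lower level. It was highest in ventral competent telogen (6.11, 6.56 and 7.68 FPKM) and lowest in dorsal catagen (1.19 and 1.37 FPKM), the same end groups as Wnt10a. In dorsal skin Wnt6 fell by 1.03 from early to mid anagen (± 0.20, adjusted p = 0.000115) and by 0.86 from late anagen to catagen (± 0.20, 0.000738). Over the 18 group means, Wnt6 and Wnt10a had the highest Pearson's r of any pair of members, 0.881.

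Wnt3a was highest in chin early anagen (5.47 and 6.36 FPKM), a group that did not overlap its neighbour in the order, and lowest in ventral early anagen (1.19, 1.39 and 1.54 FPKM). The same labelled stage thus held both ends of its range. In dorsal skin its levels stayed between 1.86 and 4.07 FPKM, and the stage test there (adjusted p = 0.0292) was lost without late anagen replicate 1 (0.0587) or either catagen library (0.0889 and 0.215).

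Wnt10b was the scarcest ligand, at 0.26 to 2.72 FPKM, with group means that spanned 7.49-fold. It was highest in dorsal early anagen (2.53 and 2.71 FPKM) and lowest in ventral early anagen (0.33, 0.36 and 0.36 FPKM). The refractory telogen libraries of all 3 domains were low, at 0.26 to 0.63 FPKM. Replicates were less close than for the other members, as in chin mid anagen (0.51 and 2.3 FPKM), and 16 of 17 neighbouring pairs overlapped.

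The step from competent telogen to early anagen, the labelled onset of growth, passed in opposite directions in ventral and dorsal skin for Wnt6, Wnt10a and Wnt10b. The share of all genes that did so was not counted, so this cannot be called particular to these members. By another test, the step differed between dorsal and ventral skin for 49.6% of all genes. In ventral skin 4 of 7 members fell, where 29.3% of all genes fell: Wnt10b (-1.18 ± 0.21, adjusted p = 4.96e-05), Wnt10a (-1.13 ± 0.15, 5.3e-07), Wnt3a (-1.02 ± 0.14, 9.74e-07) and Wnt6 (-0.81 ± 0.18, 0.000391). In dorsal skin 4 of 7 rose, where 35.2% of all genes rose: Wnt10b by 1.00 ± 0.26 (0.0026), Wnt10a by 0.92 ± 0.18 (0.000181), Wnt6 by 0.78 ± 0.21 (0.00398) and Wnt7b by 0.77 ± 0.17 (0.000438). Wnt3 fell there (-0.32 ± 0.12, 0.0252), so that 5 of 7 passed in either direction where 43.4% of all genes did, against 4 of 7 and 42.5% in ventral skin. The fall of Wnt3 was a call that was lost without either competent telogen library (0.0673 and 0.112) or early anagen replicate 2 (0.155). In chin skin 0 of 7 passed this step, where 2.14% of all genes passed, and by limma's unadjusted p under 0.05 only 1 did, Wnt3a (0.40 ± 0.17, adjusted p = 0.297).

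In library values, Wnt10a was 29.35, 38.55 and 40.71 FPKM in ventral competent telogen and 14.48, 15.93 and 17.36 in ventral early anagen, but 14.39 and 15.53 in dorsal competent telogen and 27.79 and 30.48 in dorsal early anagen. For Wnt10b the corresponding values were 1.7, 1.85 and 2.72, then 0.33, 0.36 and 0.36 FPKM in ventral skin, and 0.76 and 0.85, then 2.53 and 2.71 FPKM in dorsal skin. For both genes the groups did not overlap in either domain. The difference between the dorsal and the ventral step was 2.18 ± 0.34 for Wnt10b (adjusted p = 4.11e-06), 2.04 ± 0.24 for Wnt10a (3.8e-08), 1.59 ± 0.28 for Wnt6 (2.1e-05) and 1.18 ± 0.22 for Wnt3a (6.42e-05), a test chosen after the values had been seen. With Wnt7b (0.53 ± 0.22, 0.042, lost in 11 alternatives), 5 of 7 passed it, where 49.6% of all genes did. The first 4 of these differences passed under every alternative in which they could be fitted. Against chin the ventral step differed for 5 of 7, where 27.2% of all genes differed, but the call of Wnt7b (adjusted p = 0.0465) was lost in 34 of 52 alternatives, that of Wnt10b in 3 and that of Wnt6 in 1. The dorsal step differed from that of chin for 3 of 7, where 33.6% of all genes did, and the call of Wnt10b (0.0291) was lost in 10 of 51 alternatives and that of Wnt10a in 2. The step rests on dorsal competent telogen, ventral competent telogen and ventral early anagen, whose markers went against their labels, so no value without them can be given. The cell cycle markers moved with it, from 445 to 520 down to 41.0 to 51.0 FPKM in ventral skin and from 207 to 211 up to 582 FPKM in dorsal skin, and their part in it was not tested. The median of all genes also rose, by 0.25 on the log2 scale in dorsal skin; with libraries scaled by the median of ratios the dorsal rises were lost for Wnt6 (0.42, adjusted p = 0.13) and Wnt7b (adjusted p = 0.0626), and with quantile normalization for Wnt6 (0.135) and Wnt10b (0.0583). Without dorsal early anagen replicate 1, Wnt6 gave 0.67 (0.0507).

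**Figure D3:**
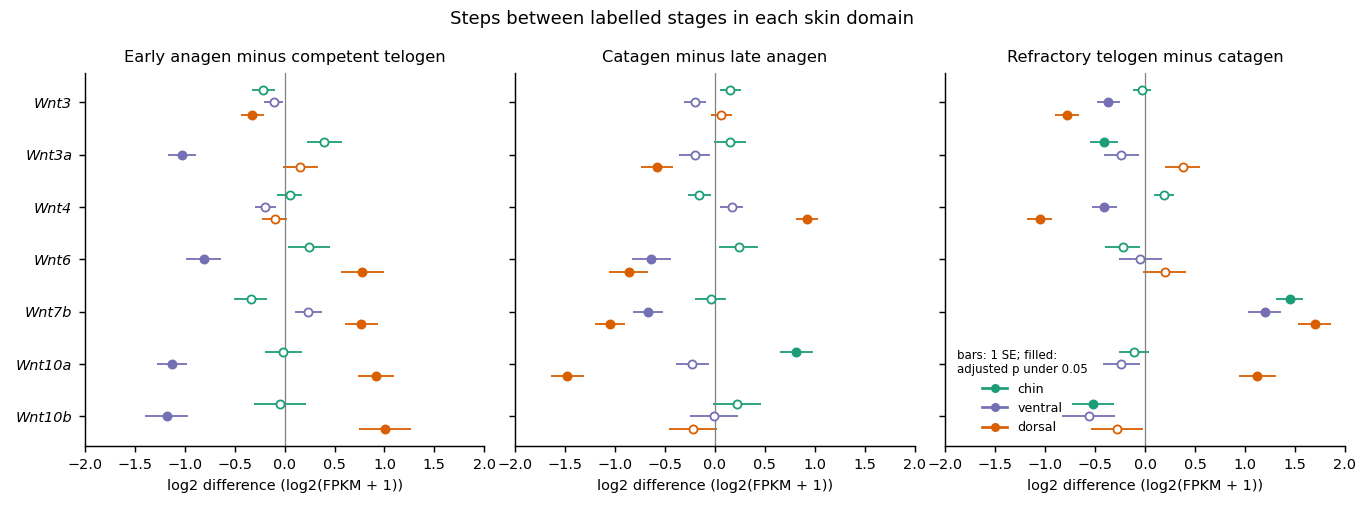
Log2 difference of each ligand (horizontal axis, log2(FPKM + 1), bars 1 SE) for 3 steps between labelled stages, with colors for the domains and filled points where the adjusted p was under 0.05. Wnt10a and Wnt10b lie on opposite sides of 0 in ventral (-1.13 and -1.18) and dorsal skin (0.92 and 1.00) in the first panel, and Wnt7b lies right of 0 in all 3 domains in the last.

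Over all 6 steps, 12 of 42 member steps passed in chin, 21 of 42 in ventral and 21 of 42 in dorsal skin. The share of all genes that passed a step ran from 2.14% to 48% in chin, 5.93% to 42.6% in ventral and 2.68% to 43.7% in dorsal skin. In dorsal skin the step from late anagen into catagen passed for 5 of 7, where 38.7% of all genes passed. Beside Wnt4 and Wnt10a these were Wnt7b (-1.05 ± 0.15, 2.17e-06), Wnt6 and Wnt3a (-0.58 ± 0.16, 0.00399), the last lost without dorsal catagen replicate 1 (0.053). Dorsal late anagen against mid anagen passed for 0 of 7, where 2.68% of all genes passed, and by limma's unadjusted p under 0.05 only 1 did, Wnt7b (0.30 ± 0.14, adjusted p = 0.38).

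The step from early to mid anagen starts from the same early anagen libraries in which the step before it ended, ventral early anagen being among the doubted ones, so the 2 steps are not independent. In ventral skin 5 of 7 passed, where 42.4% of all genes passed: Wnt10a (1.03 ± 0.17, 1.08e-05), Wnt10b (0.85 ± 0.24, 0.00485), Wnt6 (0.70 ± 0.20, 0.00456) and Wnt3a (0.63 ± 0.16, 0.0019) rose and Wnt7b fell (-0.84 ± 0.15, 4.9e-05). In dorsal skin 5 of 7 passed, where 39.2% of all genes passed, and beside the rise of Wnt3 and the fall of Wnt6 these were falls of Wnt7b (-0.95 ± 0.15, 1.2e-05), Wnt10b (-0.81 ± 0.24, 0.00844) and Wnt10a (-0.67 ± 0.17, 0.00224). With the median of ratios the dorsal falls of Wnt10a (0.0534) and Wnt10b (0.0528) were lost, and that of Wnt10b also without dorsal early anagen replicate 2 (0.0601). In chin skin 1 of 7 passed, Wnt3a (-0.72 ± 0.17, 0.00457), where 18.1% of all genes passed, and it was lost without early anagen replicate 1 (0.0597) or mid anagen replicate 2 (0.051). Wnt7b was thus the member that fell from early to mid anagen in both ventral and dorsal skin, and its chin difference was -0.38 ± 0.17 (0.11).

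In the steps after mid anagen, ventral skin changed in 1 of 7 members into late anagen and 2 of 7 into catagen, and chin skin in 4 of 7 and then 1 of 7. Both chin steps use the chin late anagen libraries, which are among the doubted ones. From mid to late anagen, 4 of 7 fell in chin, where 19.7% of all genes passed: beside Wnt10a these were Wnt6 (-0.76 ± 0.21, 0.0116), Wnt4 (-0.51 ± 0.12, 0.004) and Wnt3 (-0.37 ± 0.12, 0.0247). Leaving out late anagen replicate 1 lost Wnt6 (0.0778) and Wnt3 (0.14), late anagen replicate 2 lost Wnt4 (0.0751) and Wnt3 (0.0711), and mid anagen replicate 1 lost Wnt6 (0.094) and Wnt3 (0.152). In ventral skin 1 of 7 passed, Wnt3 (0.31 ± 0.11, 0.0356), where 24.2% of all genes passed, and it was lost without either mid anagen library (0.123 and 0.156) or late anagen replicate 2 or 3 (0.0918 and 0.1). Into catagen, 1 of 7 passed in chin, Wnt10a (0.82 ± 0.17, 0.00148), where 13.1% of all genes passed. In ventral skin 2 of 7 did, where 5.93% of all genes passed, Wnt7b (-0.67 ± 0.15, 0.00642, lost without catagen replicate 2 at 0.0953) and Wnt6 (-0.64 ± 0.20, 0.0499, lost in 34 alternatives).

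From catagen to refractory telogen, 3 of 7 passed in chin and in ventral skin and 4 of 7 in dorsal skin, where 48%, 33.6% and 43.7% of all genes passed. Beside Wnt7b, these were falls of Wnt3a (-0.41 ± 0.14, 0.0175) and Wnt10b (-0.52 ± 0.21, 0.0456) in chin, and of Wnt4 (-0.41 ± 0.12, 0.0119) and Wnt3 (-0.37 ± 0.12, 0.0146) in ventral skin. Single libraries decided all 4: Wnt3a was lost without chin catagen replicate 1 (0.0812) or refractory telogen replicate 2 (0.0543), Wnt4 without ventral catagen replicate 1 (0.195) or refractory telogen replicate 1 (0.432), and Wnt3 without ventral catagen replicate 1 (0.085) or refractory telogen replicate 2 (0.188). Wnt10b was lost without any of the 3 chin refractory telogen libraries (0.0641 to 0.118) or chin catagen replicate 1 or 2 (0.125 and 0.147).

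From competent to refractory telogen, 6 of 7 passed in ventral skin and all 6 fell, where 34.5% of all genes fell and 42.6% passed, among them Wnt10b (-1.11 ± 0.24, 0.000376) and Wnt10a (-0.99 ± 0.17, 1.98e-05). Of these 6, Wnt3 and Wnt3a were lost without refractory telogen replicate 2 (0.188 and 0.329) and Wnt4 without replicate 1 (0.271), and Wnt3 turned to 0.05 with the median of ratios and to 0.02 with quantile normalization. In chin skin 3 of 7 passed and fell, where 18.4% of all genes fell and 36.3% passed, namely Wnt10b (-1.06 ± 0.24, 0.000749), Wnt3a (-0.80 ± 0.16, 0.000177) and Wnt3 (-0.33 ± 0.11, 0.0149), the last lost without competent telogen replicate 1 (0.165) or refractory telogen replicate 1 or 3 (0.0776 and 0.113). In dorsal skin Wnt7b rose (0.77 ± 0.17, 0.000986) and Wnt6 fell (-0.71 ± 0.21, 0.0162), where 22.2% of all genes passed. The Wnt6 call was lost without either refractory telogen library (0.108 and 0.0545) or competent telogen replicate 2 (0.116).

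Growing skin was compared with resting skin as mid anagen minus the mean of competent and refractory telogen. Wnt7b was lower in mid anagen in all 3 domains, with differences of -0.87 ± 0.14 in chin (adjusted p = 1.59e-05), -0.52 ± 0.14 in ventral (0.00596) and -0.57 ± 0.13 in dorsal skin (0.0011). In library values, chin mid anagen held 6.57 and 9.76 FPKM of Wnt7b, ventral 6.22 and 9.39 and dorsal 4.65, 4.76 and 5.15. Wnt3 was higher in dorsal skin by 0.60 ± 0.09 (6.6e-06), and Wnt4 and Wnt6 were higher in chin skin by 0.34 ± 0.10 (0.0117) and 0.51 ± 0.18 (0.0295). In all, 3 of 7 passed in chin, 1 of 7 in ventral and 2 of 7 in dorsal skin, where 33.4%, 28.4% and 28.6% of all genes passed. The ventral fall of Wnt7b was lost without mid anagen replicate 2 (-0.26, 0.354). In chin skin the call of Wnt4 was lost without either mid anagen library (0.0539 and 0.0815), and that of Wnt6 without either mid anagen library (0.221 and 0.0553), either competent telogen library (0.0508 and 0.0567) or refractory telogen replicate 1 or 3 (0.0535 and 0.0613).

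With refractory telogen alone as the resting group, so that the doubted libraries were left out, the counts were 5 of 7 in chin, 4 of 7 in ventral and 2 of 7 in dorsal skin, where 38.4%, 30% and 29.4% of all genes passed. Hair shaft and matrix markers of refractory telogen summed to 2533 to 4298 FPKM in chin, 9381 to 10346 in ventral and 8222 to 8498 in dorsal skin. In mid anagen they summed to 11998 to 18001 FPKM in chin, 11778 to 12335 in ventral and 10085.5 to 11016.5 in dorsal skin. Their part was not tested. In chin skin Wnt6 was higher by 0.75 ± 0.20 (adjusted p = 0.00599), Wnt10b by 0.69 ± 0.27 (0.0452), Wnt3a by 0.48 ± 0.17 (0.0333) and Wnt4 by 0.48 ± 0.12 (0.00312), and Wnt7b was lower (-1.02 ± 0.17, 4.82e-05). In ventral skin the 4 were all higher in mid anagen: Wnt10a by 0.90 ± 0.18 (0.000809), Wnt6 by 0.84 ± 0.22 (0.00687), Wnt10b by 0.78 ± 0.29 (0.0468) and Wnt4 by 0.46 ± 0.13 (0.0102), whereas Wnt7b gave -0.44 ± 0.18 (0.0819). In dorsal skin Wnt3 (0.64 ± 0.11, 0.000174) and Wnt7b (-0.95 ± 0.17, 0.000206) passed as before. The change of Wnt3 exceeded that in chin by 0.52 ± 0.13 (0.00358) and that in ventral skin by 0.51 ± 0.13 (0.00577) in the design with both telogens, but by 0.39 ± 0.16 (0.0686) and 0.37 ± 0.16 (0.18) without the doubted libraries. Wnt3 was the 1 member of 7 that passed in these differences, where 29.8% and 20.4% of all genes passed, and between ventral and chin skin 0 of 7 passed at adjusted or unadjusted p under 0.05 by limma, where 10.8% of all genes passed.

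The domains were then compared at each stage. In competent telogen the F-test over the domains passed for 7 of 7, where 54% of all genes passed, and dorsal skin was the lowest domain: 6 of 7 were lower than in chin and 6 of 7 lower than in ventral skin, where 27.5% and 38% of all genes were lower. The median member difference was -0.50 against chin and -0.76 against ventral skin, beside -0.19 and -0.25 for all genes. The largest of these were Wnt10a against ventral skin (-1.21 ± 0.17, adjusted p = 8.98e-07) and Wnt7b against chin (-1.17 ± 0.17, 2.91e-06). With libraries scaled by the median of ratios 3 of 7 passed the F-test, with quantile normalization 4 of 7, and without dorsal competent telogen replicate 2 likewise 4 of 7. The differences of Wnt4 and Wnt10b in both comparisons, of Wnt3a from chin and of Wnt3 from ventral skin were each lost without some single competent telogen library (adjusted p from 0.0523 to 0.259), and Wnt3 and Wnt4 turned to 0.10 and 0.04 against ventral skin with the median of ratios. These are the dorsal libraries that resembled chin late anagen.

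In early anagen 7 of 7 passed, where 51.6% of all genes passed. Wnt3a was lower in ventral than in chin skin (-1.54 ± 0.16, adjusted p = 8.04e-09), and Wnt10b was higher in dorsal than in ventral skin by 1.42 ± 0.24 (1.98e-05). In mid anagen 5 of 7 passed, where 38.1% of all genes passed, with a dorsal minus chin difference of -0.83 ± 0.20 for Wnt6 (0.00363) and a dorsal minus ventral difference of -0.86 ± 0.17 for Wnt10a (0.000285). In library values, mid anagen Wnt6 was 2.09, 2.78 and 2.93 FPKM in dorsal, 6.15 and 6.22 in ventral and 4.93 and 5.83 in chin skin, so that dorsal skin did not overlap the others. In late anagen 3 of 7 passed, where 20.8% of all genes passed, namely Wnt3, Wnt6 and Wnt10a. Wnt3 and Wnt10a were lower in chin than in both other domains, and these chin libraries are among those doubted.

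Mid anagen, catagen and refractory telogen gave the domain differences that rest on none of the doubted libraries, although hair shaft and matrix markers in refractory telogen summed to 8222 to 10346 FPKM in dorsal and ventral skin against 2533 to 4298 FPKM in chin. Cell cycle markers in catagen summed to 469 to 481 FPKM in dorsal, 305 in chin and 318 to 329 in ventral skin. Their part was not tested. In catagen 5 of 7 passed, where 42.9% of all genes passed, and dorsal skin stood apart from chin by 1.16 ± 0.11 for Wnt4 (adjusted p = 2.31e-09), -1.66 ± 0.17 for Wnt10a (3.76e-09), -0.96 ± 0.20 for Wnt6 (0.000205), -0.94 ± 0.15 for Wnt7b (9.57e-06) and 0.51 ± 0.11 for Wnt3 (0.000233). Wnt10a was 6.5 and 6.88 FPKM in dorsal catagen, 21.36, 23.16 and 25.49 in chin and 19.02 and 22.91 in ventral catagen. Wnt4 was 23.96 and 24.89 FPKM in dorsal catagen, 9.65, 10.27 and 11.37 in chin and 12.49 and 15.23 in ventral catagen. Dorsal catagen thus did not overlap the other domains for either gene. Ventral and chin catagen differed for 0 of 7, where 5.19% of all genes differed, and by limma's unadjusted p under 0.05 for 2, Wnt4 (0.38 ± 0.11, adjusted p = 0.0513) and Wnt7b (-0.39 ± 0.15, 0.148). In dorsal catagen the basal keratinocyte markers were also lowest of the 3 domains (2268 and 2329 FPKM against 3081 to 4309), and their part was not tested.

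In refractory telogen 2 of 7 passed, Wnt7b (adjusted p = 0.000423) and Wnt6 (0.0311), where 42.2% of all genes passed. Wnt7b was higher in chin than in dorsal skin (dorsal minus chin -0.69 ± 0.15, 0.000639) and than in ventral skin (ventral minus chin -0.64 ± 0.15, 0.00182), and the chin libraries did not overlap either. The difference from ventral skin was lost without ventral refractory telogen replicate 2 (-0.34, 0.167), and with only the refractory telogen libraries in the fit 0 of 7 passed. The count was 4 of 7 without ventral refractory telogen replicate 1 or replicate 2 and 1 of 7 without dorsal refractory telogen replicate 1 or replicate 2. Skeletal muscle markers were highest in chin refractory telogen, at 10843 to 16648 FPKM against 942 to 1011 in ventral and 3333 to 3513 in dorsal skin, and their part was not tested.

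Among the other genes of the pathway, those that passed in dorsal mid anagen against telogen rose more often than they fell, where 18.9% of all genes rose and 9.67% fell. In each domain the telogen mean includes competent telogen, which is among the doubted groups, and in dorsal skin resembled chin late anagen. No values without these libraries are given for the pathway lists. Of 9 R-spondins, their receptors and ligases, 6 rose and 1 fell, led by Znrf3 (1.33 ± 0.18, adjusted p = 1.25e-06), a ligase that removes frizzled receptors, and Rspo3 (0.87 ± 0.15, 6.57e-05), an R-spondin that opposes it. Of 6 secretion and carrier factors, 4 rose and 1 fell, with Wls, the carrier of WNT ligands to the cell surface, higher by 0.89 ± 0.11 (2.62e-07). Of 8 feedback targets, 4 rose and 0 fell, led by Tnfrsf19 (1.24 ± 0.09, 6.9e-12) and Ccnd1, a cyclin (1.07 ± 0.08, 2.06e-11). Of 9 genes of beta-catenin and its nuclear partners, Lef1 rose (1.02 ± 0.18, 6.33e-05) and Bcl9l fell (-0.46 ± 0.12, 0.00483). Of 10 secreted antagonists, 4 rose and 2 fell, led by Wif1 (1.70 ± 0.11, 3.52e-12) and Sfrp4 (1.65 ± 0.21, 9.41e-07). Of 12 receptors, 1 rose, Fzd10 (0.96 ± 0.15, 1.12e-05), and 3 fell, among them Fzd4 (-0.49 ± 0.16, 0.0187). Of 7 other WNT ligands tested, Wnt2 rose (0.52 ± 0.15, 0.0078) and 0 fell.

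In chin skin 8.57% of all genes rose and 24.8% fell, and in ventral skin 8.8% rose and 19.6% fell. For R-spondins, their receptors and ligases, 2 rose and 3 fell in each of the other domains, for feedback targets 1 rose and 1 fell in chin and 0 rose and 2 fell in ventral skin, and for secreted antagonists 2 rose and 4 fell in chin and 1 rose and 4 fell in ventral skin. The list medians in dorsal, chin and ventral skin were 0.52, -0.13 and -0.13 for the R-spondin list and 0.36, 0.02 and -0.02 for the feedback targets, beside 0.04, -0.14 and -0.11 for all genes. Whether the lists differed between domains was not tested. The cell cycle markers rose in mid anagen for 12 of 12 genes in dorsal, 8 of 12 in chin and 10 of 12 in ventral skin, and their part in these counts was not tested.

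The ear table compared ear skin, whose HFs rest for long periods, the underlying cartilage/muscle complex and dorsal skin. Ear skin was checked by its markers: basal keratinocyte markers summed to 8973 and 9482 FPKM, against 3890 and 3978 in the dorsal libraries and 25.9 to 27.9 in cartilage/muscle. Hair shaft and matrix markers summed to 70.9 and 80.4 FPKM in ear skin and 10098 and 10209 in the dorsal libraries, and in cartilage/muscle 13 of the 14 found were listed at 0 in all 3 libraries. The dorsal columns of this table carry the code of competent telogen and hold the same values as those libraries, whereas the text of the study calls its dorsal comparator refractory telogen in one place and otherwise in another. Each difference from dorsal skin is therefore one from the libraries labelled competent telogen, unless refractory telogen is named.

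Wnt7b was the ligand that most set ear skin apart. It was 27.88 and 33.43 FPKM in ear skin and 5.58 and 5.7 in dorsal skin, a difference of 2.25 ± 0.11 (adjusted p = 1.52e-05), and the ear values also lay above the highest Wnt7b of any library of the first table, 19.71 FPKM. Both tables give the same values for the dorsal libraries because these are the same libraries. This does not show that the ear libraries share a scale with the other skin libraries, so the ranking across the tables is a description. Wnt4 was 17.17 and 18.35 FPKM in ear and 10.47 and 10.92 in dorsal skin (0.68 ± 0.11, 0.00208). Wnt10a was 22.25 and 29.93 FPKM in ear and 14.39 and 15.53 in dorsal skin (0.75 ± 0.19, 0.0158). Wnt3, at 17.63 and 19.02 FPKM in ear and 21.37 and 22.04 in dorsal skin, was lower in ear (-0.23 ± 0.08, 0.0434), but gave 0.0057 (adjusted p = 0.961) after TPM rescaling. Thus 4 of 7 passed, where 59.3% of all 19299 genes tested passed, and all genes had a median difference of 0.33. The fit pooled the spread over the 3 tissues, with cartilage/muscle among them. There Wnt3 and Wnt3a were listed at 0 in all 3 libraries and Wnt7b at 0 to 0.03 FPKM. The SE of these genes between ear and dorsal skin can therefore be too small. With libraries scaled by the median of ratios 2 of 7 passed, with Wnt4 at 0.22 (0.137) and Wnt10a at 0.28 (0.232). Wnt10a was also lost without the ear library of 29.93 FPKM (0.54, 0.0876) or without either dorsal library (0.0542 and 0.0789), Wnt3 was lost without any of the 2 ear skin or 2 dorsal libraries or cartilage/muscle replicate 1 or 3 (0.0562 to 0.18). Without either dorsal library, or without the ear library of 29.93 FPKM, 2 of 7 passed. The basal keratinocyte markers moved with Wnt7b and the hair shaft markers moved the other way, and their part was not tested. The dorsal refractory telogen libraries of the first table are not among the doubted ones, but their hair shaft and matrix markers summed to 8222 and 8498 FPKM. In ear skin these markers summed to 70.9 and 80.4 FPKM, and their part was not tested. Against those dorsal libraries (Wnt7b at 10.06 and 10.62 FPKM) 4 of 7 passed, where 57.5% of all genes passed. Wnt7b was then higher in ear skin by 1.48 ± 0.11 (9.31e-05), Wnt6 by 0.92 ± 0.19 (0.00686), Wnt10a by 0.68 ± 0.19 (0.023) and Wnt4 by 0.61 ± 0.11 (0.00328), while the call of Wnt3 was lost (-0.16 ± 0.08, 0.137).

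**Figure D4:**
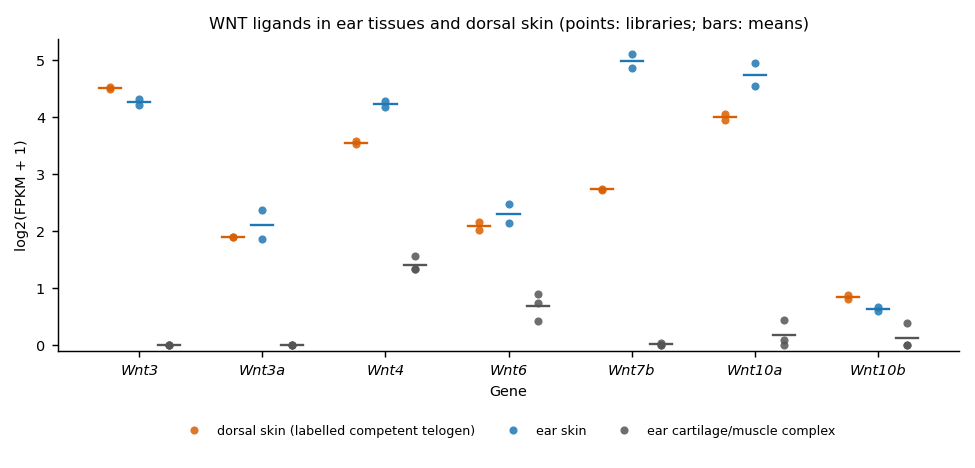
Level of each ligand as log2(FPKM + 1) (vertical axis) in the 2 dorsal, 2 ear skin and 3 cartilage/muscle libraries, with points for libraries and bars for means. Wnt7b in ear skin (27.88 and 33.43 FPKM) lies far above dorsal skin (5.58 and 5.7 FPKM), and all 7 ligands lie lowest in cartilage/muscle.

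The cartilage/muscle complex held little of any of the 7 ligands. Wnt3 and Wnt3a were listed at 0 in all 3 libraries, so no fold is given. Wnt7b was listed at 0, 0 and 0.03 FPKM, Wnt10a at 0, 0.07 and 0.35 FPKM and Wnt10b at 0, 0 and 0.31 FPKM. Wnt4 (1.51, 1.53 and 1.95 FPKM) and Wnt6 (0.34, 0.68 and 0.86 FPKM) were the members found in every library. All 7 were lower than in dorsal skin and than in ear skin, where 28.3% and 38.5% of all genes were lower. The difference from ear skin was -2.82 ± 0.10 for Wnt4 (adjusted p = 1.66e-06) and -1.62 ± 0.17 for Wnt6 (0.000298). That of Wnt10b, -0.51 ± 0.15 (0.021), was lost without either ear skin library (0.11 and 0.0759) or cartilage/muscle replicate 1 or 3 (0.0513 and 0.0522).

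The 7 ligands did not share a single course over the 18 groups. Beside Wnt6 and Wnt10a, the highest Pearson's r between members were 0.739 for Wnt3a and Wnt10b, 0.72 for Wnt6 and Wnt10b and 0.656 for Wnt3 and Wnt4, and the lowest was -0.393 for Wnt3 and Wnt7b. The group means share libraries and normalization, and these r are descriptions. Among the 4212 or 4213 other genes tested whose group means had an SD of at least 0.5, Wnt7b was most like Sphk1 (r = 0.964), Il6ra (0.963) and Lmo1 (0.963). Wnt10b was most like Fam64a (0.956), Cdc6 (0.955) and Chaf1a (0.954). Wnt10a was most like Spata5l1 (0.955), Fzr1 (0.937) and Med16 (0.935), Wnt6 like Wnt10a, Slc16a11 (0.881) and Klrg2 (0.878), and Wnt4 like Dnajc21 (0.878), Jag1 (0.867) and Fubp3 (0.853). Wnt3a was most like Hist1h3i (0.848), Slc27a6 (0.841) and Etv4 (0.833). Wnt3 had the loosest likeness, to Gm11189 (0.769), Stfa2 (0.753) and 4833427G06Rik (0.716).

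Against the marker lists, Wnt7b and Wnt10b stood out. Over the 18 groups the r of Wnt7b with the mean log2 level of the 7 basal keratinocyte markers was 0.87, with the cartilage list 0.747, with the suprabasal epidermis list 0.723, with the inner root sheath list -0.733 and with the hair shaft and matrix list -0.662. The r of Wnt10b with the 12 cell cycle markers was 0.873 and with the dermal papilla list 0.672. Wnt3, the most abundant ligand, had its r farthest from 0, -0.543, with the macrophage list, and that of Wnt10a was 0.476, with the cartilage list. In skin the cartilage list was near the floor, at group mean log2 levels of 0.73 to 0.95, with up to 3 of its 10 genes at 0 in a whole group. Its r therefore say little about cartilage.

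**Figure D5:**
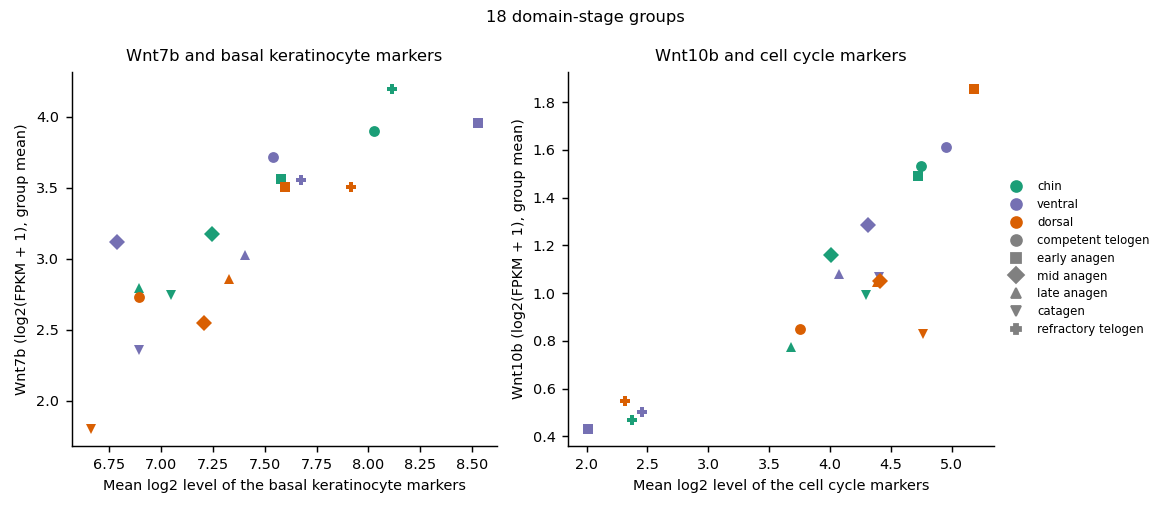
Group mean of Wnt7b against the mean log2 level of basal keratinocyte markers (left) and of Wnt10b against that of cell cycle markers (right), both genes as log2(FPKM + 1), with colors for domains and symbols for labelled stages. The 3 refractory telogen groups and ventral early anagen lie at the lower left for Wnt10b, and dorsal catagen lies lowest for Wnt7b.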

How the data were processed

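Total RNA of whole skin was made into cDNA with SMART-seq2, tagmented and sequenced in pairs on an Illumina NextSeq. The deposited tables hold FPKM (fragments per kilobase of transcript, scaled to library size) per gene, which the authors obtained with RSEM (version 1.2.25) on the mm10 build and, per their methods, corrected for batches that are not named, so that no value within batches could be given. Depth is not in the tables and was estimated from the smallest steps between FPKM of single-transcript genes (within 6.1% in simulations), and no interval for counting error was derived from it.

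Groups followed the labels, and all 50 columns of both tables were used. With the pseudocount 1, log2(FPKM + 1) of genes that reached 0.5 FPKM in 2 or more libraries was fitted in limma 3.58.1 (statmod 1.5.0, R 4.3.3) with a variance trend, over all 18 groups at once (25 residual degrees of freedom) or over the 3 tissues of the ear table (4). The authors' own gene tests used edgeR, which needs counts and was not run on FPKM here. P-values were adjusted by Benjamini-Hochberg over all genes tested, with calls at 0.05. Differences on this scale understate the change of low genes such as Wnt10b. In simulated data for dorsal mid anagen against telogen, with 200 of 21257 genes changed, 46% of genes changed by 0.5 on the log2 scale and 92% of those changed by 1 were recovered, and 7 unchanged genes were called. The changed genes were only raised, and only genes with a mean log2 level over 1 were drawn. In the real contrast 28.6% of all genes passed. The simulated rates therefore check the fit and do not give the power in these data or for low genes. Tables and figures used Python 3.11.15, pandas 2.3.3, numpy 2.4.6 and matplotlib 3.10.9.

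The members, gene lists, tests and marker lists were chosen with earlier results of these data known, so they are not independent of them. All members are named; of each pathway list, the 2 genes with the largest change that passed in dorsal mid anagen against telogen are named, and for each member the 3 genes most like it over the 18 group means. Of alternatives, pseudocount, filters, scaling, variance trend, replicate block, the libraries of a single stage and each library left out were tried, and those without doubted libraries, with the test of the early anagen step between domains, were added once values were known. No 2 libraries within the skin domain table were identical.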

Additional observations from a re-analysis of the deposited data

Results flagged for a closer look

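By the test of the interaction itself, stage profiles differed between domains for each of the 7 ligands, with adjusted p = 5.47e-09 for Wnt10a, 2.79e-08 for Wnt4, 3.11e-07 for Wnt3, 1.43e-06 for Wnt3a, 2.98e-05 for Wnt6, 8.46e-05 for Wnt7b and 0.000393 for Wnt10b (limma). Of all genes, 73.3% passed this test. Without the doubted libraries, over fewer stages, only Wnt4, Wnt10a and Wnt3 passed, where 56.8% of all genes passed. The change of Wnt3 from telogen to mid anagen was larger in dorsal skin than in chin by 0.52 and than in ventral skin by 0.51 on the log2 scale. Of all genes, 29.8% and 20.4% passed in these differences. Without the doubted libraries both Wnt3 calls were lost, at 0.39 and 0.37 (limma, adjusted p = 0.0686 and 0.18).

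The step from competent telogen to early anagen differed between domains in 13 of 21 tests. Ventral minus chin, the differences were -1.42 for Wnt3a, -1.13 for Wnt10b, -1.11 for Wnt10a, -1.05 for Wnt6 and 0.58 for Wnt7b, where 27.2% of all genes differed. Of these calls, that of Wnt7b was lost in 34 alternatives, that of Wnt10b in 3 and that of Wnt6 in 1. Dorsal minus chin, they were 1.11 for Wnt7b, 1.05 for Wnt10b and 0.93 for Wnt10a, where 33.6% of all genes differed, and the calls of Wnt10b and Wnt10a were lost in 10 and 2 alternatives. Dorsal minus ventral, they were 2.18 for Wnt10b, 2.04 for Wnt10a, 1.59 for Wnt6, 1.18 for Wnt3a and 0.53 for Wnt7b, where 49.6% of all genes differed. The call of Wnt7b was lost in 11 alternatives. The test of this step was chosen after the values had been seen and uses libraries whose markers went against their labels. The groups hold 2 or 3 libraries, too few for a test of single libraries that stand apart.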

How the results depend on the processing

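Of 205 called differences and F-tests of single members, 117 kept their call under every alternative and 88 lost it in at least 1. Labels that markers went against, scaling and single libraries limit these results, and Wnt10b lies near 1 FPKM. In ear against dorsal skin, 2 of 7 members passed with the pseudocount 0.1 and 2 of 7 with the median of ratios. Among domains at refractory telogen, 1 passed without the filter, 5 after TPM rescaling and 0 in a fit of that stage alone. Among domains at competent telogen, 3 passed with the median of ratios and 4 with quantile normalization, and at mid anagen 2 passed in a fit of that stage alone. For mid anagen against telogen in ventral skin, 2 passed with a minimum of 5 FPKM, 3 after TPM rescaling, 5 with the median of ratios, 3 with quantile normalization and 4 without the doubted libraries. In chin skin 1 passed after TPM rescaling, 5 with the median of ratios and 5 without the doubted libraries. With a minimum of 5 FPKM, 4 members were left to test in cartilage/muscle, and 4 passed against either skin. The interaction passed for 3 without the doubted libraries, in a test of fewer stages. Other causes were not tested.

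Some directions turned. Wnt3 in ear minus dorsal skin gave 0.0057 after TPM rescaling. With the median of ratios and with quantile normalization, Wnt3 gave 0.052 and 0.016 in ventral refractory minus competent telogen and 0.0999 and 0.0398 in competent telogen, dorsal minus ventral, and Wnt4 gave 0.0401 and 0.0204 in the latter. In the early anagen step, dorsal minus ventral, Wnt4 (0.09 before) gave -0.52 and -0.53 and Wnt7b -0.0737 and -0.107.

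With each library left out in turn, 4 to 7 members passed among domains at competent telogen, 1 to 4 at refractory telogen, 1 to 3 in chin and 0 to 2 in ventral mid anagen against telogen, and 2 to 4 in ear against dorsal skin. In the ventral comparison 0 passed without ventral mid anagen replicate 2. It gave 2 without ventral competent telogen replicate 1 or 2, ventral refractory telogen replicate 1 or 2, chin refractory telogen replicate 2, or replicate 1 or 2 of chin competent telogen, early anagen or mid anagen. In chin 1 passed without mid anagen replicate 1. Over 327 same-number pairs of libraries from different groups, the median correlation of deviations was 0.003, from -0.174 to 0.162. Over 544 pairs with other numbers it ran from -0.233 to 0.233. These pairs mix the stages, so the median cannot tell whether replicate numbers pair the domains within a stage. Pairs within a stage were not tested apart. With the replicate block, counts of calls stayed within 1.5 times, with 11 in place of 12 member steps in chin and 6 in place of 7 members in cartilage/muscle against dorsal skin. No paired analysis was possible for ear skin because its columns share no numbers with the other tissues.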

Other observations

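Of the WNT ligands outside the 7, Wnt11 and Wnt5a, both known mainly for signaling without beta-catenin, were as abundant as Wnt3 in this skin. Over the 43 libraries Wnt11 ran from 6.40 through a median of 23.74 to 45.14 FPKM and Wnt5a from 4.30 through 22.50 to 35.71 FPKM. Wnt5b (median 2.89 FPKM), Wnt9a (1.60), Wnt16 (1.13) and Wnt2 (1.02) lay in the range of the scarcer members. Wnt1 was listed at 0 in 35 libraries and Wnt7a, a close relative of Wnt7b, at 0 in 7, with highest values of 0.09 and 0.41 FPKM. The carrier Wls was present throughout at 25.47 to 103.71 FPKM, and Axin2, a feedback target often read as a gauge of canonical signaling, at 2.64 to 7.39 FPKM.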
